A study of Homo sapiens with 9 samples.

Results

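The genes described here lie on the long arm of human chromosome 9, between 85.5 Mb and 113 Mb (hg19), in a stretch where signal in T47D-PA6 cells was lower than in the other 2 lines. They were chosen from the same arrays: the limits of the stretch were set where earlier results showed lower signal in T47D-PA6, so the T47D-PA6 values below are a description, with no test. Of 380 gene or transcript names with a probe inside these limits, 21 were left out by name, 213 were not well above background on all 3 arrays of any line, and 146 remained as members, out of 20099 genes tested on the array. Of the members, 100 are protein-coding and 46 are other transcripts such as long noncoding RNAs, pseudogenes and unnamed probes. Their gene names are those of the array design.

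T47D is an established human breast cancer cell line of luminal type that expresses the estrogen receptor. All 3 lines were T47D cells carrying a G418-selected pTARGET plasmid. T47D-PA6 cells carried a vector for the full-length long noncoding RNA PTH-AS, T47D-PA5 cells a vector for an incomplete PTH-AS that lacks part of the 5' side, and T47D-VC1 cells the vector without an insert. Each line is 1 selected stable line, so the vector and other features of the selected line cannot be told apart. Each line was hybridised to 3 one-color Agilent arrays (9 arrays in all), and the labels do not say whether the 3 were separate cultures, so the spread between arrays may be technical.

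The long arm of chromosome 9 holds genes of many unrelated roles. Within this stretch lie *XPA* and *FANCC*, which act in DNA repair, *HNRNPK*, which binds RNA, *FBP1*, an enzyme of gluconeogenesis that luminal breast cells express, *RNF20*, a ubiquitin ligase for histone H2B, and the cathepsin genes *CTSL* and *CTSV*, whose proteases work in the lysosome. Most neighboring genes are transcribed from promoters of their own, while some lie head to head and share the DNA between their starts.

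Signal is given as the quantile-normalized fluorescence of 1 probe per gene, in arbitrary units, and differences are on the log2 scale. Between 46.2% and 50.04% of the spots on an array were well above background. The luminal markers *ESR1*, *PGR*, *GATA3*, *FOXA1*, *KRT8*, *KRT18*, *KRT19*, *EPCAM* and *CDH1* were well above background on all 9 arrays, whereas the fibroblast genes *DCN*, *LUM* and *FAP*, the T-cell gene *CD3E* and the endothelial gene *PECAM1* were on none. Replicate 1 of every line was hybridised on slide 1 and scanned in another run, and it stood apart: over members, replicates 2 and 3 of a line differed by a median of 0.08 to 0.11, and replicate 1 from either of them by 0.21 to 0.36. Values without replicate 1, and within each slide, are therefore given beside the main values.

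Signal of the members was lower in T47D-PA6 than in both other lines for 110 of 146 genes (75.3%), against 39.8% of all genes tested. The median log2 difference over members was -0.50 from T47D-VC1 (quartiles -0.82 and -0.08) and -0.49 from T47D-PA5 (quartiles -0.81 and -0.07), a median ratio of 0.710 in each case. Over all 20099 genes the medians were -0.03 and -0.00. The size depended on the processing: after normexp background correction the member medians were -0.30 against T47D-VC1 and -0.33 against T47D-PA5, and over all 359 names inside the limits, without a filter on dim probes, they were -0.094 and -0.10. For 65 members every T47D-PA6 array lay below all 6 arrays of the other lines, which held for 9.89% of the genes of the whole array. Only 3 members, *C9orf64*, *NUTM2F* and the unnamed probe A_19_P00802027, had all 3 T47D-PA6 arrays above the other 6, against 6.81% of all genes. Because the limits were chosen for this pattern, nothing is read from these shares. In RNA from a whole culture, less RNA per cell and fewer cells that make it cannot be told apart.

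The lower signal was present on each T47D-PA6 array. Relative to the mean of the T47D-VC1 arrays, the member median was -0.37, -0.56 and -0.55 on T47D-PA6 arrays 1, 2 and 3. On the T47D-PA5 arrays it was 0.05, -0.04 and -0.00, and on the T47D-VC1 arrays themselves 0.06, -0.04 and -0.03. Thus the 3 T47D-PA6 arrays were separate from the other 6, with array 1 the closest to them. With replicates 2 and 3 alone, the medians were -0.51 from T47D-VC1 and -0.56 from T47D-PA5, and 94 members (64.4%) had both T47D-PA6 arrays below the other 4, as did 24.5% of all genes. Within slide 1 the medians were -0.41 and -0.39, and within slide 3 they were -0.50 and -0.57.

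Protein-coding members were lower more uniformly than the other transcripts. Among 100 protein-coding members, 84 were lower in T47D-PA6 than in both other lines, 54 had all 3 arrays below the other 6, and the medians were -0.58 from T47D-VC1 and -0.57 from T47D-PA5. Among the 46 other transcripts, 26 were lower than in both lines, 11 had all 3 arrays below, and the medians were -0.11 and -0.23. Outside the member list, protein-coding genes and other transcripts had medians of -0.03 and -0.04 from T47D-VC1. There 40.1% and 38.5% were lower than in both lines, so on these measures the 2 classes differed little. All 3 arrays lay below the other 6 for 1439 of 13234 protein-coding genes and 482 of 6719 others. The count without overlap thus differed by class outside the member list as well.

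**Figure D1:**
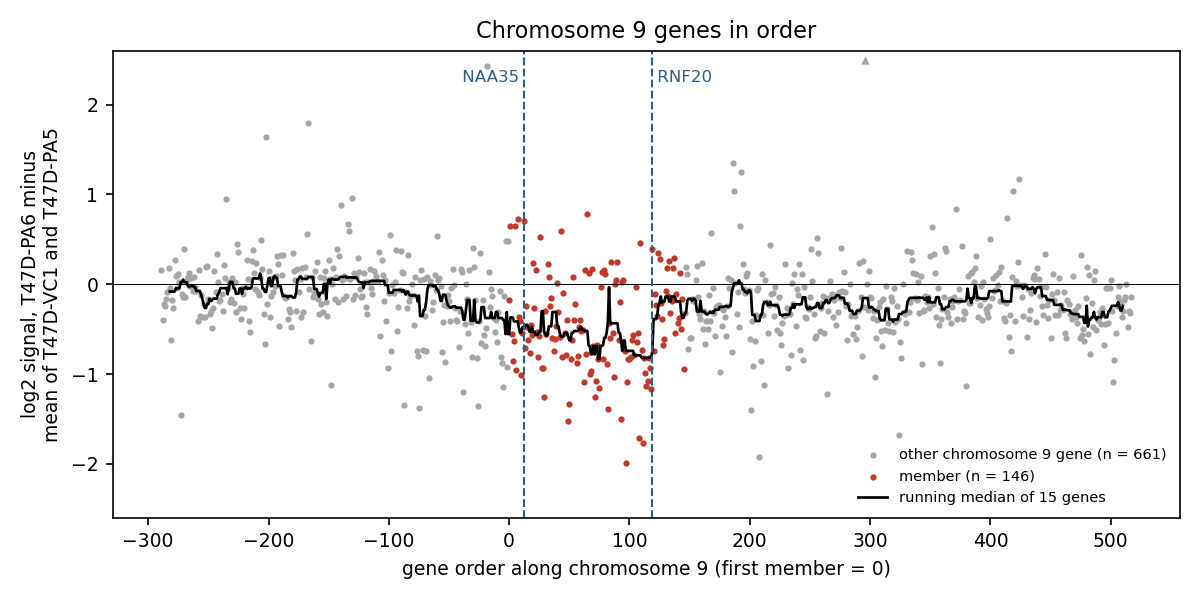
Each point is 1 of 807 tested chromosome 9 genes in chromosome order (x axis, gene order with the first member at 0), and the y axis is the log2 signal in T47D-PA6 minus the mean of T47D-VC1 and T47D-PA5. Members are red, the black line is the running median of 15 genes, dashed lines mark *NAA35* and *RNF20*, and 1 gene beyond 2.5 is drawn as a triangle at the edge. The running median is lowest, at -0.83, around *FANCC* and returns toward -0.2 just after *RNF20*.

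The edges of the lowered stretch were then sought in the data. The search took the single run of neighboring chromosome 9 genes whose mean differed most, in either direction, from the rest for its length. This run began at *NAA35*, a subunit of an N-terminal acetyltransferase (probe start 88637030), ended at *RNF20* (probe end 104324271) and held 106 genes. Its median difference from the mean of both lines was -0.60, against -0.16 for the rest of chromosome 9. The gene before the run was the noncoding transcript lnc-NAA35-1, and the gene after it was *GRIN3A*, a glutamate receptor subunit with dim signal on every array.

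The far edge was sharper than the near one. The member *MRPL50* (mitochondrial ribosomal protein), *ZNF189* (zinc finger protein) and *RNF20*, the last genes of the run, had differences of -0.82, -0.90 and -1.19 from T47D-VC1. The 8 members between 103 Mb and 105.5 Mb had medians of -0.91 and -0.93 from T47D-VC1 and T47D-PA5, and the 6 between 105.5 Mb and 108 Mb had -0.22 and -0.09. Toward the centromere the values were mixed and showed no such step. The 13 members before *NAA35* had medians of -0.50 and -0.38. Outside the limits, the 2 genes tested between 83 Mb and 85.5 Mb had 0.05 and -0.49, and the 3 between 80.5 Mb and 83 Mb had -0.32 and 0.05. The 5 genes between 78 Mb and 80.5 Mb had -0.58 and -0.71. The end at *RNF20* was returned under 16 of 25 other settings, with the start at a gene between 77.6 Mb and 95.0 Mb. Another 4 settings returned 1 gene elsewhere on the chromosome, and the other 5 a run with both edges elsewhere. Because the search took either direction, these need not be lowered stretches. Without T47D-PA5 replicate 1, on slide 3 alone and with replicates 2 and 3 alone, the gene was *LCN2*. In the main fit *LCN2* was higher in T47D-PA6, by 2.72 from T47D-VC1 and 3.09 from T47D-PA5. The edges are therefore approximate, and within slide 1 alone the run held 260 genes.

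Members at the 2 limits themselves varied. *RASEF*, a Rab-family GTPase and the first member, had signals of 797, 777 and 716 in T47D-VC1, 774, 931 and 942 in T47D-PA5, and 852, 669.8 and 673 in T47D-PA6, so the lines overlapped. Of the next 2 members, *FRMD3* was higher in T47D-PA6 (0.62 from T47D-VC1) and LOC102723989 lower (-0.75). At the far limit the last 3 members, *PTPN3*, lnc-C9orf152-1 and *C9orf152*, were lower by -0.39, -0.26 and -1.01 from T47D-VC1. Just outside, *TXN*, which encodes the redox protein thioredoxin, was also lower on all 3 T47D-PA6 arrays, at 36077, 36113 and 37012 against 41719 to 53145 on the other 6. The other 2 tested genes beyond that limit, *MUSK* and THC2660930, differed by 0.15 and 0.18. Before the near limit, the corepressor *TLE1* differed by -0.53 from T47D-VC1 and -1.31 from T47D-PA5, and the transcripts LOC101927450 and ENST00000585776 by 0.26 and 0.64 from T47D-VC1.

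**Figure D2:**
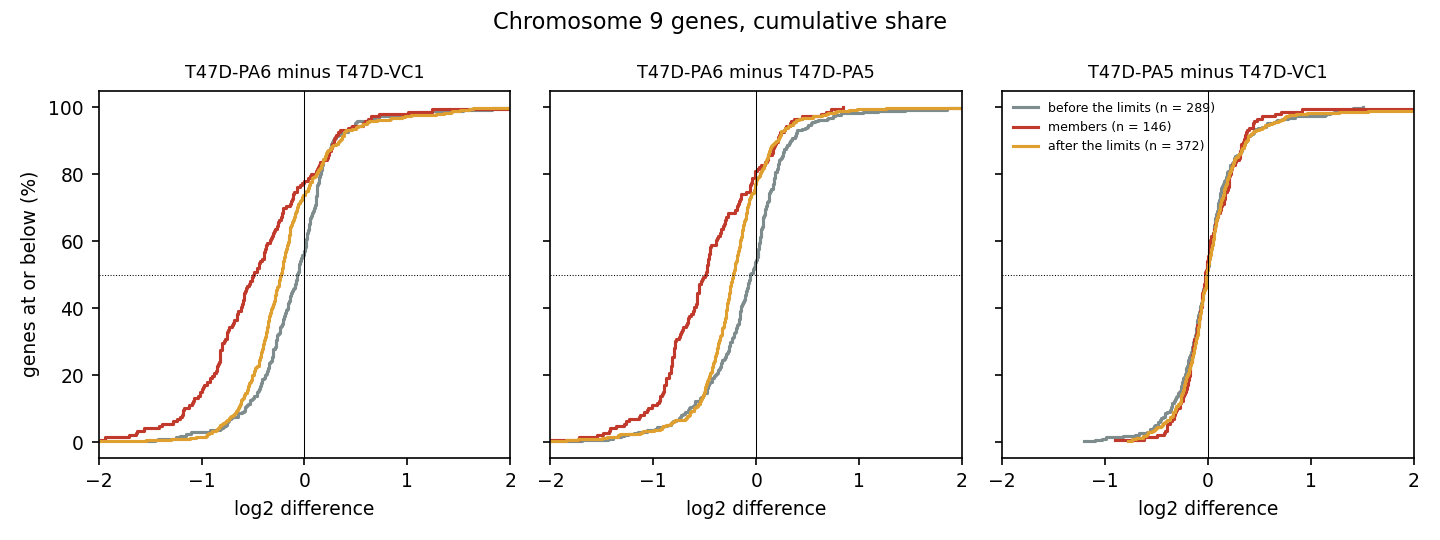
Cumulative share of genes (y axis, percent) at or below each log2 difference (x axis, cut at -2 and 2) for the 146 members (red), the 289 chromosome 9 genes before the limits (gray) and the 372 after them (yellow), 1 panel per pair of lines. The red curve lies to the left in both T47D-PA6 panels, the yellow curve lies between the other 2 around the median, and all 3 curves overlie one another near 0 for T47D-PA5 minus T47D-VC1.

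The 5 members well above background on all 9 arrays with the greatest difference from the mean of both lines were LOC100128361, lnc-CENPP-1, *FBP1*, *MSANTD3* and *RNF20*. LOC100128361, a transcript without an assigned role, measured 131, 72.9 and 63.6 in T47D-VC1, 93.6, 60.5 and 71.7 in T47D-PA5, and 38.9, 25.3 and 21.1 in T47D-PA6. No T47D-PA6 value reached those of the other lines, and the log2 difference from T47D-VC1 was -1.62 ± 0.32 (SE, n = 3 arrays per line). The noncoding transcript lnc-CENPP-1 measured 119 to 179 on the 6 other arrays and 72.8, 42.6 and 46.9 in T47D-PA6, a difference of -1.41 ± 0.22 from T47D-VC1.

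*RNF20*, whose product ubiquitinates histone H2B during transcription, measured 297, 268 and 284 in T47D-VC1, 276, 273 and 263 in T47D-PA5, and 155, 113 and 107.4 in T47D-PA6. The other lines hardly differed, and T47D-PA6 was at 0.437 of T47D-VC1 (log2 difference -1.19 ± 0.14) and 0.456 of T47D-PA5. *MSANTD3*, a protein with a Myb/SANT-like DNA-binding domain, measured 216, 272 and 232 in T47D-VC1, 331, 289 and 268 in T47D-PA5 and 132, 119 and 113 in T47D-PA6. It too did not overlap, at 0.507 of T47D-VC1 and 0.411 of T47D-PA5.

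*FBP1* behaved differently from these, because its replicate 1 arrays were far from the others. Its signals were 10267, 5574 and 4828 in T47D-VC1, 4237, 4253 and 4222 in T47D-PA5, and 4573, 1471 and 1604 in T47D-PA6. Replicate 1 of T47D-PA6 was thus as high as T47D-PA5, while replicates 2 and 3 were well below every other array, and the difference of -1.56 from T47D-VC1 carried a standard error of 0.43.

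**Figure D3:**
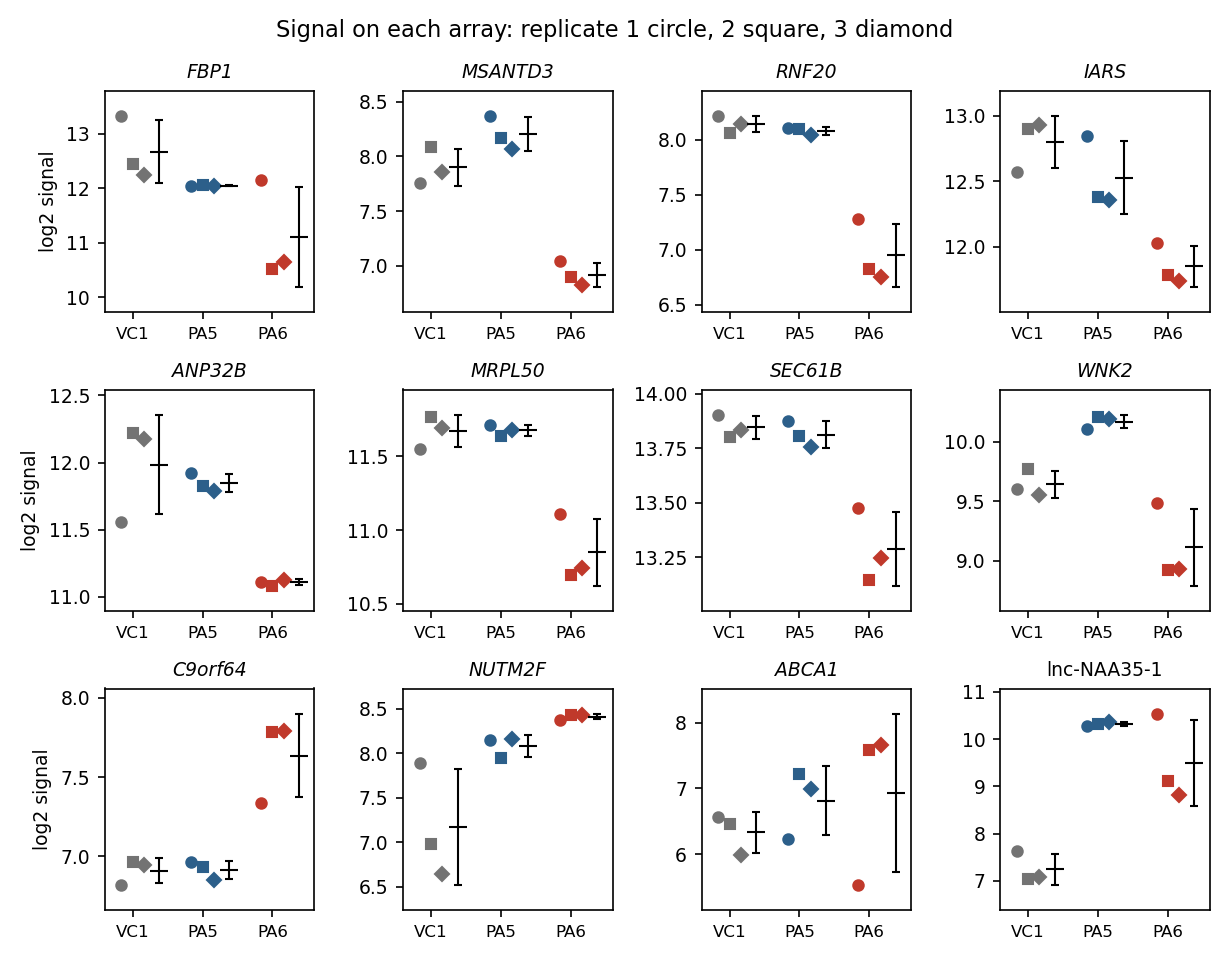
Normalized log2 signal (y axis, scaled per panel) of 12 members on every array of T47D-VC1, T47D-PA5 and T47D-PA6; circles, squares and diamonds are replicates 1, 2 and 3, and the dash with a bar is the mean ± SD of 3 arrays. Among the first 8 genes, only *FBP1* has a T47D-PA6 array level with another line, and the last row shows 4 members that were not lower than both lines.

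Members were then grouped by role in 8 lists. For the counts below, 84 of 100 protein-coding members were lower than in both lines and 54 had no overlap. Over all genes tested the shares were 39.8% and 9.89%. The members were chosen for lower signal, so nothing about a role is read from the list counts. All 12 members of the genome maintenance and cell cycle list were lower in T47D-PA6 than in both lines, 8 of them with no overlap. Of these 8, 7 were well above background on every T47D-PA6 array, and *ZNF367* was not. The list medians were -0.67 from T47D-VC1 and -0.70 from T47D-PA5. *XPA*, the damage-recognition factor of nucleotide excision repair, measured 704 to 712 in T47D-VC1, 639 to 719 in T47D-PA5 and 379 to 400.0 in T47D-PA6. Its tested probes did not all point the same way, however. *ANP32B*, a histone chaperone, measured 3018, 4765 and 4629 in T47D-VC1, 3873, 3635 and 3546 in T47D-PA5, and 2215, 2171 and 2235 in T47D-PA6, with a ratio of 0.545 to T47D-VC1. *CKS2*, a small subunit of cyclin-dependent kinases, overlapped between lines (differences -0.22 and -0.38), as did *RAD23B*, a partner of XPC in repair (-0.22 and -0.05).

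In the RNA and protein synthesis list, 11 of 12 members were lower than in both lines and 10 did not overlap. *IARS*, the cytosolic isoleucyl-tRNA synthetase, measured 6089, 7649.6 and 7797 in T47D-VC1, 7370.1, 5325 and 5255 in T47D-PA5, and 4174, 3538 and 3414 in T47D-PA6. All 3 T47D-PA6 arrays were below the rest (-0.95 ± 0.17 from T47D-VC1), although its tested probes disagreed in direction. *HNRNPK* differed less, by -0.36 and -0.38, with 4299 to 4891 in T47D-PA6 and 5390.4 to 6765 on the other arrays. *MRPL50* measured 2997, 3478 and 3306 in T47D-VC1, 3349.6, 3179.5 and 3269.9 in T47D-PA5, and 2209, 1657 and 1718 in T47D-PA6. The exception was *TDRD7*, a tudor-domain protein of RNA granules, with differences of 0.27 from T47D-VC1 and -0.17 from T47D-PA5.

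The secretory pathway, lysosome and membrane list was lower throughout: 13 of 13 members were below both lines, 10 without overlap, with medians of -0.66 and -0.67. Of these 10, 9 were well above background on every T47D-PA6 array, and *ERP44* was not. *SEC61B*, a subunit of the channel that carries proteins into the endoplasmic reticulum, measured 15302, 14281 and 14586 in T47D-VC1, 15035, 14303 and 13831 in T47D-PA5, and 11404, 9069.6 and 9719 in T47D-PA6. The other lines were within 1 range and T47D-PA6 lay at 0.681 of T47D-VC1. *TMEM245*, a multipass membrane protein, was lower by less (-0.30 and -0.45) without overlap, whereas *GOLM1*, a Golgi membrane protein, overlapped because replicate 1 of T47D-VC1 and T47D-PA5 was low (2916 and 3005, against 3556 to 3896 in T47D-PA6).

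Of 16 metabolism genes on the list, 10 were members and 9 of these were lower than in both lines, 7 without overlap. *NANS*, the sialic acid synthase, measured 13844, 18506 and 19941 in T47D-VC1, 12924, 13642 and 14771 in T47D-PA5, and 12123, 9265 and 8923 in T47D-PA6, so the groups were separate but replicate 1 came close. *SLC44A1*, a choline transporter that lies beyond *RNF20*, differed by -0.23 and -0.18 and overlapped. *ABCA1*, the exporter of cholesterol, was not lower.

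In the signaling list, 8 of 15 genes were members and 7 of them were lower than in both lines, 5 without overlap. Of these 5, 4 were well above background on every T47D-PA6 array, and *SHC3* was not. *SPIN1*, a reader of histone methylation, measured 1563, 1203 and 1093 in T47D-PA6 against 1729 to 2419 on the 6 other arrays. *ROR2*, a receptor for WNT5A, measured 954, 845 and 846 against 1002 to 1351, and the kinase gene *WNK2* measured 715, 484 and 488 against 752 to 1184. *SEMA4D*, a semaphorin, was the exception, at 0.23 from each line, and its probes disagreed. *PTCH1*, *NTRK2*, *GAS1*, *DAPK1* and *GABBR2* had a probe inside the limits but were not well above background on all 3 arrays of any line.

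The cytoskeleton and adhesion list had 7 members of 11 genes, of which 6 were lower than in both lines and 3 did not overlap. Of these 3, 2 were well above background on every T47D-PA6 array, and *TMOD1* was not. *TBC1D2*, a Rab GTPase-activating protein, measured 1437, 764 and 778 in T47D-PA6 against 1524 to 1724 elsewhere, while *CTNNAL1*, an alpha-catenin-like protein, and *FGD3*, an exchange factor for Cdc42, overlapped. All 4 genes of the list linked to estrogen response in luminal breast cancer were members, 3 were lower than in both lines and 0 were separate on all arrays. *SUSD3*, a membrane protein of this list, differed by 0.30 from T47D-VC1 and -0.15 from T47D-PA5.

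By the 1 probe used per gene, transcription factors were the least uniform list. Of 12 genes, 8 were members, 4 of these were lower than in both lines and 2, *NR4A3* and *ZNF189*, did not overlap, with medians of -0.25 and -0.23. On no T47D-PA6 array did *NR4A3* stand well above background, so it passed the filter through T47D-VC1 and *ZNF189* alone is left without overlap. *PHF2*, a histone demethylase, was lower (-0.45 and -0.58) with overlap of 1 array. *NFIL3*, a bZIP repressor, measured 1636, 1289 and 1342 in T47D-VC1, 1818, 1865 and 1922 in T47D-PA5, and 1442, 1754 and 1764 in T47D-PA6, which placed T47D-PA6 between the other lines. *ZNF462*, a zinc finger protein beyond *RNF20*, differed by 0.03 and -0.19. *ZNF169*, *ZNF782* and *ZNF462* were counted as not lower, but each had a dimmer tested probe that was lower than in both lines. That of *ZNF782* differed by -1.52 and -1.08. The count for this list therefore depends on the probe chosen.

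**Figure D4:**
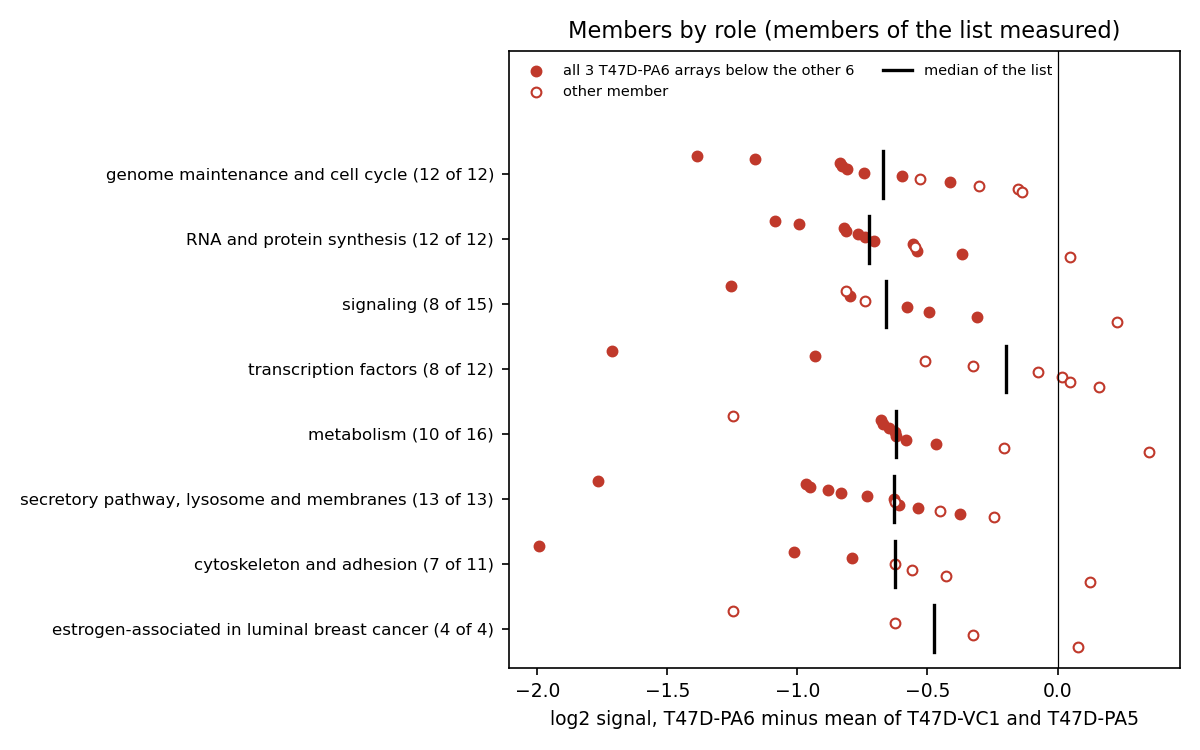
Members of the 8 role lists (rows, with the number of members of the genes listed), each at its log2 signal in T47D-PA6 minus the mean of T47D-VC1 and T47D-PA5 (x axis). Filled points are members whose 3 T47D-PA6 arrays lie below the other 6, open points the other members and bars the list medians; the transcription factor bar is nearest 0, and no member of the genome maintenance or secretory list lies right of 0.

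Members that escaped the shift numbered 36, namely 24 higher than both lines and 12 between them, and 16 of the 36 were protein-coding. *C9orf64* (current symbol *QNG1*), an enzyme that releases the modified base queuine from its nucleotide, measured 113, 125 and 123 in T47D-VC1, 124, 122 and 115 in T47D-PA5, and 161, 220.0 and 222 in T47D-PA6. It was the protein-coding member with the clearest separation in the upward direction, at 1.66 of T47D-VC1 and 1.65 of T47D-PA5, whereas its dimmer tested probe differed by -0.10 and 0.19. Its neighbor *HNRNPK* was among the genes with lower signal.

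*FRMD3*, a FERM-domain protein, was higher in T47D-PA6 replicates 2 and 3 (333 and 351) than in those of T47D-VC1 (146 and 112) and T47D-PA5 (173 and 171), but replicate 1 of T47D-VC1 was at 556 and the groups overlapped. *NUTM2F* was highest in T47D-PA6 on every array, at 333, 345 and 345 against 99.7 to 284 elsewhere, but it shares nearly identical sequence with *NUTM2G* and other copies, so its signal cannot be assigned to 1 gene with certainty. *NXNL2*, a thioredoxin-like protein of photoreceptors, measured 546, 768 and 789 in T47D-PA6 against 306 to 566, with overlap.

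*ABCA1* varied with the replicate. It measured 95.1, 87.5 and 63.1 in T47D-VC1, 74.8, 149 and 128 in T47D-PA5, and 46.4, 191 and 203 in T47D-PA6. Replicate 1 of T47D-PA6 was the lowest of the 9 arrays and replicates 2 and 3 the highest. Among noncoding members, lnc-C9orf103-1 measured 15913, 9731 and 11620.5 in T47D-PA6 against 5319.8 to 10679.5 elsewhere, and lnc-STX17-1 measured 77.2, 34.7 and 37.4 against 23.9 to 68.7, both with overlap.

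Where 2 members lay head to head, both were lower, but so were 84 of 100 protein-coding members, so nothing is read from this. In the RefSeq promoter table (GRCh38.p14, 250 bases before to 50 after each start), which matched 94 of the 146 members, 4 pairs of members were divergent with starts at most 1000 bases apart: *NOL8* and *CENPP*, *ALG2* and *SEC61B*, *ERP44* and *INVS*, and *MRPL50* and *ZNF189*. These pairs were sought after the values of the genes were known. *NOL8*, a nucleolar protein, and *CENPP*, a centromere protein, differed by -0.59 and -0.99 from T47D-VC1. *ALG2*, a mannosyltransferase of N-glycosylation, and *SEC61B* differed by -0.77 and -0.55. *ERP44*, a chaperone of the early secretory pathway, and *INVS*, the ciliary protein inversin, differed by -1.98 and -0.84. *ERP44* was well above background on only 2 T47D-PA6 arrays and passed the filter through another line, so its lower signal supports nothing. *MRPL50* and *ZNF189* differed by -0.82 and -0.90.

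The DNA between the starts of 3 of these pairs is shown, plus strand. Whether it acts on both genes of a pair was not tested. Capitals mark GAAANNGAAA, the core of the interferon-stimulated response element, in the first and second, and CCGGAAG, an ETS-type motif, in the third, searched on both strands. The stretches are chr9:92325351-92325467, chr9:101398619-101398850 and chr9:100099001-100099242 (GRCh38.p14).
NOL8-CENPP: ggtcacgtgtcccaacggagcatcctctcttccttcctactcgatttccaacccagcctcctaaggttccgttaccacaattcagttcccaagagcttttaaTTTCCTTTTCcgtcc
MRPL50-ZNF189: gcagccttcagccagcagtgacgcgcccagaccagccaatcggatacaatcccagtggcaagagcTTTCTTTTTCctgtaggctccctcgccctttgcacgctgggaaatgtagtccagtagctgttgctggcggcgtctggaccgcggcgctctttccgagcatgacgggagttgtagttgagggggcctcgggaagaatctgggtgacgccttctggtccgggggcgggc
ERP44-INVS: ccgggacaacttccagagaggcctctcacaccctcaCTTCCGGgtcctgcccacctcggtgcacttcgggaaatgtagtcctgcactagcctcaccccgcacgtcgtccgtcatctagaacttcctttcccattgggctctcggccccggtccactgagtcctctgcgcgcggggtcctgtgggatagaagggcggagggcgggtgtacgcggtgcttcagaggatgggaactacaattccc

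The 250 bases before the start are also shown for *RNF20*, the last gene of the lowered run, and for *C9orf64*, which escaped. They are chr9:101533603-101533852 (plus strand, capitals GGGCGG, the GC box) and chr9:83956743-83956992 (minus strand, capitals CCGGAAG). The marks do not set the 2 genes apart, because the longer promoter window of *RNF20* counted below also held CCGGAAG.
RNF20: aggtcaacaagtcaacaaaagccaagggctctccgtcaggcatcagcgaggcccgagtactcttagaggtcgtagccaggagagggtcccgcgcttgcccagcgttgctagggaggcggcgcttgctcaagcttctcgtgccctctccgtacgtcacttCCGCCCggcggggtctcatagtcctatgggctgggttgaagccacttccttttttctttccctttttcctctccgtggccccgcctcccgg
C9orf64: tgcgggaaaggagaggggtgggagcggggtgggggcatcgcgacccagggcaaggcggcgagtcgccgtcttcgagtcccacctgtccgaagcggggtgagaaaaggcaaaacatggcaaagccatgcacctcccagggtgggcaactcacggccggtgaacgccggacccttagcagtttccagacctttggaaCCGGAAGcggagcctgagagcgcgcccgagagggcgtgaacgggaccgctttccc

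The same motifs were counted in every matched promoter. GAAANNGAAA was in 4 of 94 matched members (4.26%), the 4 genes of the first 2 stretches above, and in 3.65% of 27305 promoters of the table. TTCNNNGAA, the gamma-activated site, was in 8 of 79 lower and 3 of 15 other matched members (7.88% of all promoters). CCGGAAG was in 11 of 79 and 1 of 15 (10.67%), CCAAT in 31 of 79 and 3 of 15 (35.7%), TATAAA in 2 of 79 and 3 of 15 (12.0%) and GGGCGG in 59 of 79 and 9 of 15 (44.6%). A match is a description of these letters and not of binding.

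The direction usually held across probes of a gene. Of 51 members with several tested probes, 41 had every probe lower in T47D-PA6 than in both lines and 3 (*C9orf64*, *FRMD3* and lnc-C9orf103-1) had none lower. In the remaining 7 (*IARS*, LOC158435, *SEMA4D*, *XPA*, *ZNF169*, *ZNF462* and *ZNF782*) the probes disagreed. Of the 146 members, 11 were not well above background on all 3 T47D-PA6 arrays and had passed through another line, so their lower signal supports nothing. They make up 8 of the 65 members without overlap, among them *ZNF367*, *SHC3*, *NR4A3*, *ERP44* and *TMOD1* of the role lists. For *SHC3*, an adaptor of receptor kinases, LOC100499484 and *NR4A3*, an orphan nuclear receptor, no T47D-PA6 array was well above background and only a bound can be given: *SHC3* was at least 1.64-fold higher in T47D-VC1 and at least 2.05-fold higher in T47D-PA5, LOC100499484 at least 2.03-fold and 1.68-fold, and *NR4A3* at least 1.76-fold and 1.78-fold. These bounds set the mean of the brighter line against the lowest signal counted as well above background on the T47D-PA6 arrays, or the probe's own signal where higher.

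The comparison of T47D-PA5 with T47D-VC1 did not enter the choice of the members and was tested. In limma's moderated test over all 20099 genes with Benjamini-Hochberg adjustment, 2 of 146 members were called, both higher in T47D-PA5, against 1.67% of all genes in either direction and 1.37% in the upward one, shares near that of the members, and the member median was -0.02. The noncoding transcript lnc-NAA35-1 measured 197, 131 and 136 in T47D-VC1 and 1249.6, 1271 and 1321 in T47D-PA5, a rise of 3.07 ± 0.39 on the log2 scale (limma adjusted p = 0.00886). In T47D-PA6 it measured 1479.6, 557 and 453, with replicate 1 above and replicates 2 and 3 below the T47D-PA5 arrays. The cathepsin L pseudogene *CTSLP8*, whose probe may share sequence with *CTSL*, measured 208, 234 and 221 in T47D-VC1 and 339, 354 and 347 in T47D-PA5, a rise of 0.65 ± 0.11 (limma adjusted p = 0.0299), and 200.1, 254 and 243 in T47D-PA6.

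Across members the 2 calls depended on the arrays used. Without replicate 1 of each line, 25 members (17.1%) were called, but so were 21.4% of all genes, and without any single array of T47D-PA5, or replicate 2 or 3 of T47D-VC1, only lnc-NAA35-1 was. At an unadjusted p under 0.05, 13 members (8.90%) passed, against 15.6% of all genes.

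Compared with the rest of chromosome 9, the members had the lowest medians. The 289 tested genes before the limits, which reach back to the start of the chromosome, had medians of -0.07 from T47D-VC1 and -0.06 from T47D-PA5. The 372 after the limits had -0.23 and -0.22. The genome was also divided into windows of 27.5 Mb with at least 50 tested genes. On chromosome 9 the windows were aligned to the limits chosen for lower signal, and on other chromosomes they began at the chromosome start. The rank of the members' window is therefore a description and supports nothing. That window ranked lowest of 113 by the median from T47D-VC1. By the median from T47D-PA5 it ranked 4, after 3 windows of chromosome 1 with medians of -0.62 to -0.59. By the share of genes lower than in both lines it was second to a chromosome 13 window (77.6% of 58 genes), and windows of chromosomes 1 and 16 reached 69.0% to 71.3%. The chromosome 9 windows next to the limits were also lower. The window from 58 Mb had medians of -0.25 from T47D-VC1 and -0.23 from T47D-PA5, ranks 6 and 6, with 64.8% lower than in both lines. The window from 113 Mb had -0.23 and -0.23, ranks 8 and 7, with 66.7%. The 2 T47D-PA6 comparisons share the T47D-PA6 arrays, so their values are not independent of each other.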

How the data were processed

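RNA of 9 samples (3 arrays each of T47D-VC1, T47D-PA5 and T47D-PA6) was measured on 1-color Agilent SurePrint G3 human arrays. The authors deposited scanner intensity files, made with Agilent Feature Extraction (10.7.1.1 per the file headers, 9.5.1.1 per the submitters' processing notes; probe positions hg19), and a quantile-normalized intensity table, used here as an alternative. From the deposited processed intensity, log2 was taken, outlier spots were dropped, spots of a probe averaged and arrays quantile-normalized. Probes well above background on all 3 arrays of at least 1 line were kept, and the probe with the highest mean signal stood for a gene. limma 3.58.1 (R 4.3.3) was fitted to all 9 arrays and 20099 genes with Benjamini-Hochberg adjustment at 0.05. On simulated data for T47D-PA5 over T47D-VC1 with 20083 genes, it recovered 56 of 98 changes of 1 and 90 of 102 changes of 2 on the log2 scale, with 13 other calls. The simulated noise was independent between genes and arrays. It lacked the shift of replicate 1 shared across genes, so these counts need not hold for the real arrays. The number of arrays limits the precision. Named genes were the 5 greatest differences, up to 8 escaping genes, the 3 genes on each side of each limit, the 3 brightest of each role list, the genes called in T47D-PA5 and those below background in T47D-PA6; genes added for their position or shared promoters, as the text describes, were chosen after their values were seen. The members, the limits and the gene lists were chosen with earlier results of these data known.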

Additional observations from a re-analysis of the deposited data

How the results depend on the processing

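The member medians stayed below 0 for T47D-PA6 under every alternative run. With normexp background correction they were -0.30 against T47D-VC1 and -0.33 against T47D-PA5, and without the filter on dim probes -0.094 and -0.10, where 142 of 359 genes were not lower than in both lines. Within slide 1 the median from T47D-PA5 was -0.39, and over protein-coding members alone, a choice made after seeing the data, the median from T47D-VC1 was -0.58. Leaving out 1 array at a time gave medians of -0.55 to -0.45 from T47D-VC1 and -0.57 to -0.46 from T47D-PA5, -0.035 to 0.030 for T47D-PA5 minus T47D-VC1, 65 to 84 members with no overlap (44.5% to 57.5%, against 10.5% to 17.7% of all genes) and 36 to 41 members not lower. The cause of these shifts was not tested. No scaling moved the median of all genes by over 0.1.

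The 2 members called in T47D-PA5 over T47D-VC1 became 1 to 4 when 1 array was left out. With an unpaired t-test and Benjamini-Hochberg adjustment 1 was called, among 39 genes in all against 335. The paper names an unpaired t-test for its statistics in general, and defined changed genes on the arrays by fold. Both calls remained with slide as a block (606 genes called in all). Chosen after seeing the data, replicates 2 and 3 alone gave 25 called members among 4304 called genes. *CTSLP8* lost its call in 10 of these recalculations and lnc-NAA35-1 in none (adjusted p 0.000249 to 0.0497). Same-numbered arrays had correlated deviations of 0.0994 to 0.338 and were not used as pairs. Replicate 1 of each line was on slide 1 and replicate 3 on slide 3, whereas replicate 2 of T47D-PA6 was on slide 3 and that of the other lines on slide 2, so the numbers follow the slides in part. A replicate block in the fit to all arrays kept 2 calls and medians of -0.50 and -0.49, and a replicate block in the fit to T47D-PA5 and T47D-VC1 alone, added later, left 1 call. No block can be put on the count of members without overlap.

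The edges were the result that varied most, and a returned run need not be lowered because the search took either direction. The start moved to 90581559 with the 75th percentile shift and with T47D-PA6 minus T47D-VC1 alone, also when its differences were limited to -1 to 1, and to 77598617 with the mean of the tested probes. Both edges moved to 14714 and 67671021 with normexp, 95596275 and 95608515 without the filter, 77598617 and 131857134 with probes well above background on all 9 arrays, and 45352193 and 116191588 on slide 1 alone. T47D-PA6 minus T47D-PA5 alone gave 131696085 and 131696297, or 44991418 and 131857134 when limited to -1 to 1 (added later). Slide 3 alone, and replicates 2 and 3 alone, gave 130914244 and 130914303, which is *LCN2*, a gene with higher signal in T47D-PA6. With 1 array left out the start lay between 88637030 and 130914244 and the end between 104324271 and 130914303, the upper values without T47D-PA5 replicate 1.

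Of 88 differences of named genes, 6 changed sign under at least 1 alternative, none of them for a gene without overlap between the 2 lines compared. Dim probes limit the data: 213 of 359 names inside the limits had no probe well above background on all 3 arrays of any line, and each line is 1 selected line with 3 arrays.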
